A study of Mus musculus with 4 samples.

Results

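The genes described here carry the signals of leukaemia inhibitory factor (LIF), interleukin 6 and leptin into the cell. They are the receptor chains Lifr, Il6st, Il6ra, Osmr and Lepr, the kinases Jak1 and Jak2, the transcription factor Stat3, and the feedback inhibitors Socs2 and Socs3. They were picked by gene symbol, with no threshold on a value, but with earlier results of these data known. All 10 were in the deposited table, as 19 of its 33072 RefSeq transcripts and 10 of its 24063 genes. Of the 10, 8 passed the filter on low values, and Osmr and Lepr did not.

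Cytokines of this family bind a receptor chain of their own, which pairs with the shared chain gp130, the product of Il6st. Leptin instead binds a receptor that pairs with itself. The paired receptors activate Janus kinases (JAKs), which phosphorylate STAT3, and STAT3 then enters the nucleus and switches on targets that include Socs3. The SOCS3 protein binds gp130, the leptin receptor and the JAKs and ends the signal. In corticotropes LIF is known to raise Pomc transcription through STAT3, and Socs3 is known to blunt that response.

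Both cell types make pro-opiomelanocortin, the precursor of ACTH and α-MSH, the former in the anterior and the latter in the intermediate lobe of the pituitary. The corticotrope group held 2 libraries and the melanotrope group 2 libraries, all from GFP-positive cells sorted out of the dissected lobes of POMC-EGFP reporter mice on strain C57B6. Every group therefore carries the same transgene, and a cell was collected for GFP and by lobe. The sources used here give no age, sex or treatment, and do not tell whether each replicate was its own sort or animal, so p-values measure only the spread between these libraries, which may be technical.

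The deposited values were called FPKM, reads scaled to transcript length and library size, from total RNA depleted of ribosomal RNA. The 4 columns had nearly equal sums (729482 to 729485), which FPKM do not have by construction, and the sources used here do not state the step behind this. Pomc transcripts took 27.2% to 27.8% of summed FPKM in corticotropes and 49.7% to 50.9% in melanotropes, which lowers every other deposited value in melanotropes, so values were rescaled between libraries. Levels below are rescaled FPKM unless called deposited, and differences are log2 fold changes of melanotrope over corticotrope on log2(FPKM + 1). The reads implied by the spacing of low FPKM values numbered 4263 to 145507 per gene and library for the 8 members that passed the filter. Corticotrope replicate 1 had the fewest implied reads per unit of deposited FPKM. Relative to it, corticotrope replicate 2 had 2.00 times as many, melanotrope replicate 1 had 1.90 and melanotrope replicate 2 had 2.04. Pax7, a melanotrope factor, stood at 7.95 and 9.49 FPKM in corticotropes against 55.3 and 57.8 in melanotropes, and Crhr1, the CRH receptor, at 126 and 138 against 6.94 and 8.22. Of 13 marker genes for the remaining hormone cells of the anterior lobe, 13 were lower in melanotropes, with summed levels of 5647 to 5836 FPKM in corticotropes against 14.8 to 63.0 in melanotropes. Endothelial and pericyte markers were lower for 4 of 5 tested (sums 14.0 to 20.1 against 5.03 to 6.67). Posterior-lobe, folliculostellate and glial markers were higher for 4 of 6 tested and lower for 1 (37.7 to 42.7 against 51.8 to 60.2). Fibroblast markers were higher for 2 of 3 (7.09 to 8.45 against 14.5 to 17.7). Immune and blood markers were higher for 3 and lower for 2 of 6 (21.8 to 28.7 against 12.6 to 16.8). The 2 lower were the haemoglobin genes Hba-a1 and Hbb-bs, the latter at 13.5 and 18.6 against 1.17 and 2.55 FPKM. The 3 higher were the immune genes C1qa, Csf1r and Cx3cr1, so the sum does not give the direction of the immune genes. Some called markers passed the filter on low values only through the group where they were high, so the filter largely set their direction. Through melanotropes alone these were Rax, Sox9, Lum, Csf1r and Cx3cr1. Through corticotropes alone they were Pou1f1, Tshb, Dlk1, Foxl2, Ghrhr, Gnrhr, Nr5a1, Gata2, Emcn, Rgs5 and Hba-a1. The sums cover all genes of a list, tested or not, while the counts cover only those tested. Of all genes tested, 18% were called lower and 19.2% higher in melanotropes (limma adjusted p under 0.05). No marker of these lists was at 0 in all 4 libraries. The markers move with every difference between the cell types below, and their part in it was not tested.

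The comparison asked which members differ between the cell types. Il6st, Lifr, Il6ra, Jak1, Stat3 and Socs2 were lower in melanotropes, at 58.8% to 76.1% of their corticotrope level. No member was called higher in melanotropes. Socs3, the most abundant member, had overlapping libraries. After rescaling, Jak2 was higher in both melanotrope libraries without passing the threshold. In counts, 6 of the 8 tested members were lower at an adjusted p under 0.05 and 0 were higher (limma), where 18% of the 13044 genes tested were lower and 19.2% higher, 37.2% in all. On the deposited scale the members' count was also 6 lower, beside 66.8% of all genes. At an unadjusted p under 0.05 (limma) there was 1 higher, Jak2, a threshold that at least the 19.2% of all genes called higher also pass. The median log2 fold change of the 8 was -0.45, against 0.01 over all genes tested. The libraries of the cell types did not overlap for 7 of the 8, and for 71.2% of all genes tested. In the authors' deposited table, whose own test gave an FDR under 0.05 for 2.28% of transcripts, 0 member transcripts passed, and the smallest FDR was 0.223 for Il6st. In bulk libraries, fewer cells with a transcript and less of it per cell cannot be told apart.

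**Figure D1:**
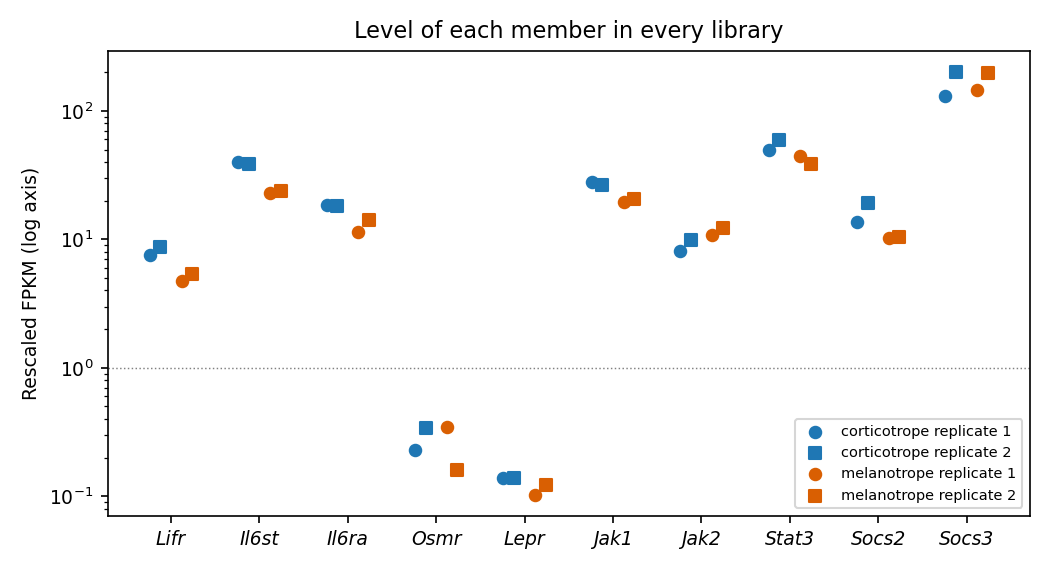
Rescaled FPKM (vertical log axis) of the 10 members in the 4 libraries, with corticotropes in blue and melanotropes in orange, circles for replicate 1 and squares for replicate 2. The dotted line marks the 1 FPKM of the filter, below which Osmr and Lepr lie in every library, and Socs3 is the highest member in each.

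In order of level, Socs3 came first in both cell types, followed by Stat3, Il6st, Jak1 and Il6ra. Neighbours among the first 5 did not overlap between libraries in either cell type. In corticotropes the libraries of Il6ra overlapped those of Socs2, next in order, and those of Jak2 overlapped those of Lifr. In melanotropes Il6ra and Jak2 overlapped, and Jak2 stood above Socs2. Osmr and Lepr were last in both. FPKM are values per length, so these levels can be set side by side.

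Among the receptors, Il6st differed most. Il6st (chromosome 13, 112464070 to 112506860, plus strand, mm10), which encodes the signal chain shared by the family, was at 40.3 and 38.6 FPKM in the corticotrope replicates and at 22.8 and 23.6 in the melanotrope replicates. The groups were far apart beside a spread of less than 2 FPKM within each. Its means were 39.50 ± 1.202 and 23.2 ± 0.547 FPKM (SD, n = 2 each), a log2 fold change of -0.74 (SE 0.07, limma adjusted p = 8.44e-04). It was called lower under all 15 alternative settings.

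Lifr (chromosome 15, 7140542 to 7197489, plus strand), the chain that makes a LIF receptor with gp130, was at 7.56 and 8.73 FPKM in corticotropes and at 4.72 and 5.41 in melanotropes. Every melanotrope library was below every corticotrope library, with a log2 fold change of -0.59 (SE 0.11, limma adjusted p = 0.00787), and the call was kept under all 15 alternatives. Il6ra (chromosome 3, 89869324 to 89913162, minus strand), the chain that binds interleukin 6, was at 18.5 and 18.3 FPKM in corticotropes and at 11.5 and 14.3 in melanotropes. The corticotrope libraries were nearly equal, and the spread lay between the melanotrope libraries. Its log2 fold change was -0.49 (SE 0.11, limma adjusted p = 0.0182), and without melanotrope replicate 1 it was -0.34 with an adjusted p of 0.0584 (range 1.42e-04 to 0.0584 over 15 alternatives). GENCODE M21 places an antisense gene on 242 exonic bases of Il6ra, and no strand setting is stated for the counting.

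The remaining receptors were near the floor. Osmr (chromosome 15, 6813577 to 6874313, minus strand), the oncostatin M chain that lies near Lifr on the chromosome, was at 0.230 and 0.338 FPKM in corticotropes and at 0.344 and 0.159 in melanotropes. Its libraries overlapped, and the implied reads were 147 to 432 per library. Lepr (chromosome 4, 101717407 to 101813667, plus strand), the leptin receptor, was at 0.140 and 0.139 FPKM in corticotropes and at 0.103 and 0.122 in melanotropes. Both melanotrope libraries were below both corticotrope libraries, but the deposited values of 0.09 to 0.17 carry a rounding error of 0.005, and 108 to 203 reads were implied per library. Neither gene passed the filter, so neither has a test. With the filter removed the limma adjusted p was 0.783 for Osmr and 0.298 for Lepr. Leprot, which encodes a regulator of leptin receptor trafficking, has a body separate from Lepr and was at 15.0 and 16.3 FPKM against 11.1 and 13.2 (log2 fold change -0.34, limma adjusted p = 0.0475). Its call was lost under 7 of 15 alternatives, among them the fits without melanotrope replicate 1 (adjusted p = 0.218) or either corticotrope replicate (0.0547 and 0.118; range 9.16e-04 to 0.218). It was named outside the rule for named genes, after its values were seen.

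Of the kinases, Jak1 was called lower and Jak2 was not called. Jak1 (chromosome 4, 101151974 to 101265282, minus strand), the JAK on which gp130 mainly relies, was at 28.01 and 26.5 FPKM in corticotropes and at 19.5 and 20.8 in melanotropes. The groups did not overlap, with a log2 fold change of -0.42 (SE 0.08, limma adjusted p = 0.00873), and the call was kept under all 15 alternatives. Jak2 (chromosome 19, 29251803 to 29313080, plus strand), the kinase of the leptin, growth hormone and prolactin receptors, was at 8.13 and 9.86 FPKM in corticotropes and at 10.8 and 12.2 in melanotropes. Both melanotrope libraries were above both corticotrope libraries. The log2 difference was 0.32 (SE 0.11, 95% interval 0.04 to 0.61, limma adjusted p = 0.0729), which missed the threshold. It was called higher under 3 of the 15 alternatives, among them the fits without corticotrope replicate 2 (log2 fold change 0.42, adjusted p = 0.0356) and with equal sums of the transcripts other than Pomc (0.38, adjusted p = 0.0295), while without corticotrope replicate 1 it was 0.17 (adjusted p = 0.321) and on the deposited scale its sign was negative (-0.12; adjusted p over the 15 alternatives 0.00162 to 0.321).

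**Figure D2:**
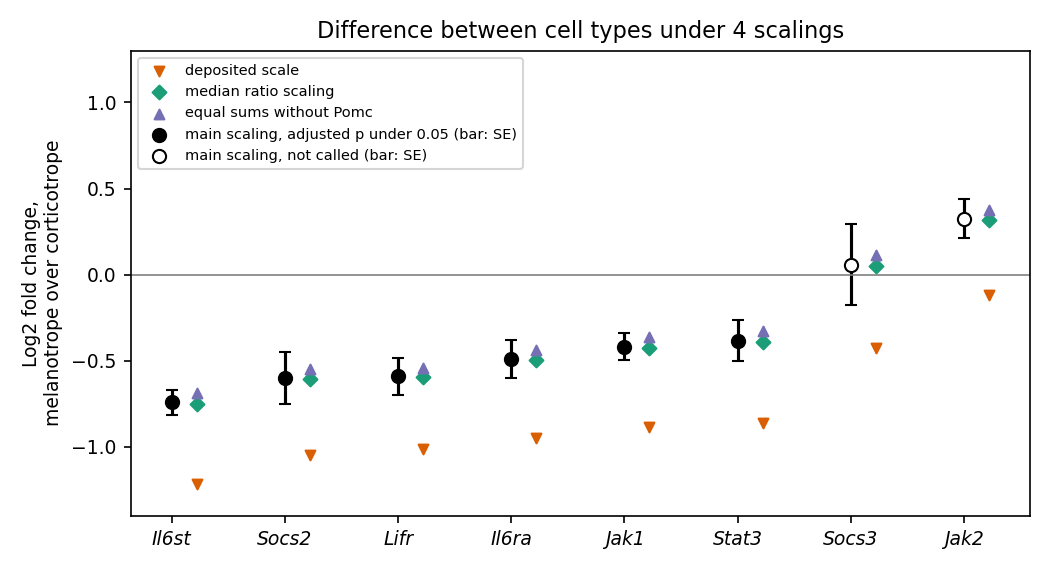
Log2 fold change of melanotrope over corticotrope (vertical axis) for the 8 members that passed the filter, with black or open circles and SE bars for the main scaling and coloured symbols for 3 other scalings. The deposited scale lies below the others for each gene and turns the sign of Socs3 and Jak2, while Il6st, Socs2, Lifr, Il6ra, Jak1 and Stat3 are below 0 under all 4.

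Stat3 (chromosome 11, 100886810 to 100939511, minus strand), the transcription factor of the pathway, was at 49.8 and 59.2 FPKM in corticotropes and at 44.6 and 38.3 in melanotropes. The groups did not overlap, but the nearest libraries were only about 5 FPKM apart. The log2 fold change of -0.39 (SE 0.12) had a limma adjusted p of 0.0496, at the threshold itself. The direction was the same under all 15 alternatives and the call was kept under 7 of them (adjusted p, range 0.00199 to 0.189). Without corticotrope replicate 2 the adjusted p was 0.165, and without melanotrope replicate 2 it was 0.189. GENCODE M21 gives 72 exonic bases shared with Stat5a on the other strand.

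Of the SOCS members, Socs2 was called lower and Socs3 was not called. Socs2 (chromosome 10, 95411490 to 95416857, minus strand), an inhibitor best known for restraining growth hormone signals, was at 13.7 and 19.2 FPKM in corticotropes and at 10.3 and 10.5 in melanotropes. The corticotrope libraries spread widely and the melanotrope libraries hardly at all, without overlap. Its log2 fold change was -0.60 (SE 0.15, limma adjusted p = 0.0262), and the call was lost without melanotrope replicate 1 (adjusted p = 0.0515) and with no expression filter (0.0692; range 7.82e-05 to 0.0692 over 15 alternatives).

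Socs3 (chromosome 11, 117966087 to 117969366, minus strand), the STAT3-induced inhibitor of gp130, was at 131 and 201 FPKM in corticotropes and at 146 and 197 in melanotropes. The spread between replicates of a cell type exceeded the distance between cell types, and replicate 2 was the higher library in each. The means were 166 ± 49.5 and 171 ± 36.3 FPKM (SD, n = 2 each), a log2 difference of 0.06 with a 95% interval of -0.52 to 0.64 (SE 0.24, limma adjusted p = 0.869). The interval holds a difference in either direction larger than that of Jak1 or Stat3, so a change of their size was not detectable. The sign turned without corticotrope replicate 1 (-0.28), without melanotrope replicate 2 (-0.15) and on the deposited scale (-0.43), and the call was absent under all 15 alternatives (adjusted p, range 0.0950 to 0.897).

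The start region of Socs3 is shown because Socs3 is the member with the highest level and the classical STAT3 target. RefSeq windows of 300 bases (250 before and 50 after a transcript start, GRCm38.p6) were found for 9 of the members, 11 windows in all, and none for Socs2. They were searched for the STAT motif TTCNNNGAA, which reads the same on both strands. Of the 11 windows 1 held it, that of Socs3, at 154 bases before the start, as did 8.30% of all 32851 windows of that length. The window at chr11:117969317-117969616 on the minus strand is printed 5′ to 3′ with the match in capitals.
Socs3: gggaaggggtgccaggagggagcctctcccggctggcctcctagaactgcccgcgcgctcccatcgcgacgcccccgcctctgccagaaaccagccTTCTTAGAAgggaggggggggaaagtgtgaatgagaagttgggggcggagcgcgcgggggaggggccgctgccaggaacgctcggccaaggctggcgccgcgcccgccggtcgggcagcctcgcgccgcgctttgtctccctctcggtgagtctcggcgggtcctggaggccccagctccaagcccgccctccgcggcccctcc
A match is a run of letters and does not show that STAT3 binds there, and the other windows say nothing of sites farther out.

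Ratios of members within a library do not depend on the rescaling. With 2 libraries against 2, the exact permutation test (two-sided) cannot give a p below 0.333, so no ratio can pass a threshold, and 7 ratios were computed. Jak2 over Jak1 was 0.290 and 0.372 in corticotropes and 0.552 and 0.587 in melanotropes. This was the ratio with the largest log2 difference (0.79, pooled SD 0.18 between replicates, exact p = 0.333), and its groups did not overlap. Jak2 was thus higher relative to Jak1 in both melanotrope libraries, whatever the scale.

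Lifr over Il6st was 0.187 and 0.226 in corticotropes and 0.207 and 0.229 in melanotropes, and the groups overlapped (log2 difference 0.08, exact permutation p = 0.667). Without corticotrope replicate 1 the difference was -0.05. Il6ra over Il6st was 0.457 and 0.473 against 0.502 and 0.604, without overlap (log2 difference 0.24, exact permutation p = 0.333). Lepr over Il6st was 0.00346 and 0.00359 against 0.00452 and 0.00519, also without overlap, and rests on Lepr values near the floor. Osmr over Il6st overlapped, at 0.00570 and 0.00875 against 0.0151 and 0.00675. Its log2 difference of 0.51 became -0.07 without melanotrope replicate 1 and 1.09 without melanotrope replicate 2.

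Socs3 over Stat3 was 2.64 and 3.40 in corticotropes and 3.26 and 5.14 in melanotropes, with overlap between the groups (log2 difference 0.45, pooled SD 0.37, exact permutation p = 0.667). The difference ran from 0.12 without melanotrope replicate 2 to 0.78 without melanotrope replicate 1. Socs2 over Stat3 was 0.276 and 0.323 against 0.230 and 0.274, where the higher melanotrope library lay just under the lower corticotrope library (log2 difference -0.25, pooled SD 0.17, exact permutation p = 0.333).

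**Figure D3:**
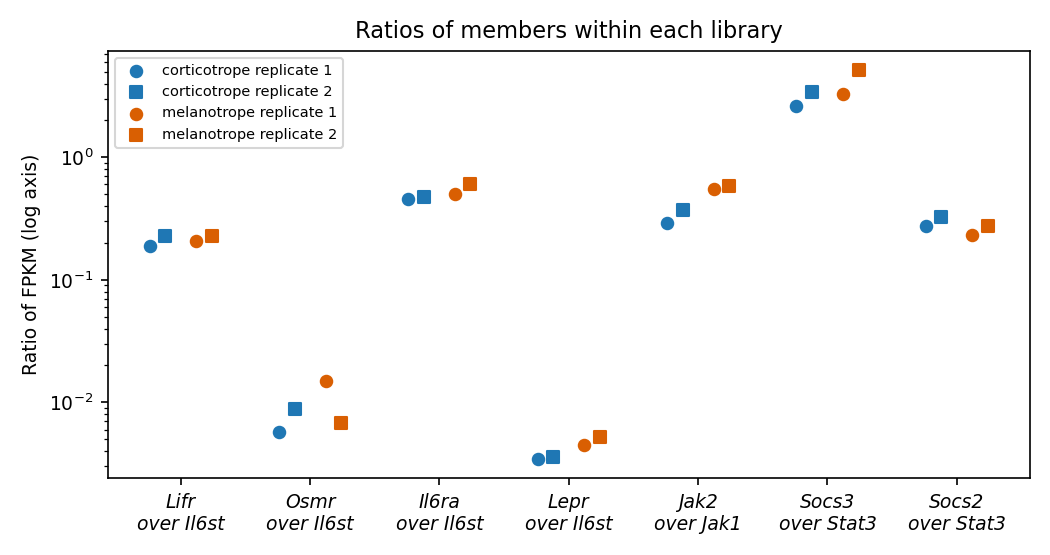
Ratios of FPKM between 2 members within each library (vertical log axis), with corticotropes in blue and melanotropes in orange, circles for replicate 1 and squares for replicate 2. Jak2 over Jak1 is 0.290 and 0.372 in corticotropes and 0.552 and 0.587 in melanotropes, while Lifr over Il6st overlaps between the cell types.

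Several members were listed as more than 1 transcript. Transcripts of a gene share exons and so reads, and they are not independent of each other. Fitted per transcript, 12 of the 15 member transcripts that passed the filter were lower in melanotropes and 0 higher, where 18.8% of 19843 transcripts were lower and 38.2% were called in either direction (limma). At an unadjusted p under 0.05 (limma), both Jak2 transcripts were higher. At least the 3858 of 19843 transcripts called higher also pass that threshold. The 12 were all tested transcripts of the 6 genes named above. Without melanotrope replicate 1 there were 6, and without melanotrope replicate 2 there were 5. The shorter Lifr transcript (NM_001113386, 2825 bases), which begins at another start site and ends before the last exons of NM_013584 (9641 bases), stood at 1.24 to 1.26 times the FPKM of the longer one in all 4 libraries. This ratio did not separate the cell types. The 3 Stat3 transcripts, the 2 Jak2 transcripts and the 4 Socs2 transcripts lay within 0.973 to 1.02 times the longest transcript of their gene. For Lepr, NM_146146 was at 0.667 to 0.938 and NM_010704 at 0.889 to 1.10 times NM_001122899, where rounding of the deposited values is a large part of the range.

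The rest of the pathway was described with 6 lists of 102 genes that hold none of the members. All 102 were in the table and 78 were tested. Of all genes, 18% were lower and 19.2% higher, and 66.8% were lower on the deposited scale. Of the 78, 27 were lower and 13 higher in melanotropes (limma), or 34.6% and 16.7%. Without melanotrope replicate 1 the counts were 17 lower and 13 higher, and on the deposited scale they were 56 lower and 5 higher.

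Of the 10 genes of the ligand list, 2 passed the filter, and both were called higher in melanotropes (limma). Before rescaling, 1 was higher and 0 lower. Among all genes tested, 18% were lower and 19.2% higher, and 66.8% were lower before rescaling. The ligands that did not pass were scarce, at no more than 0.527 FPKM in any library. Lif was at 0.0822 and 0.0780 FPKM in corticotropes and at 0.0573 and 0.0367 in melanotropes, and Il6 between 0 and 0.0694 in the 4 libraries. Lep and Il27 were listed at 0 in all 4. Ctf1, cardiotrophin 1, a ligand of LIFR and gp130, was at 6.04 against 10.03 FPKM in the mean, without overlap (log2 fold change 0.65, limma adjusted p = 0.00274), and missed the threshold on the deposited scale (adjusted p = 0.0670). Clcf1 was between 0.321 and 0.527 FPKM in the 4 libraries.

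Of 15 tested receptor chains of other cytokines, 7 fell and 2 rose in melanotropes, with a median log2 fold change of -0.19. The lower count was 4 without corticotrope replicate 1 or melanotrope replicate 1, and 3 without corticotrope replicate 2. Before rescaling, 11 were lower and 1 higher. Of all genes, 18% were lower and 19.2% higher, and before rescaling 66.8% were lower. Cntfr, the chain that binds ciliary neurotrophic factor and joins LIFR and gp130, was at 3.51 and 3.53 against 1.24 and 0.955 FPKM (-1.11, limma adjusted p = 7.07e-04). Epor, the erythropoietin receptor, was at 2.79 and 3.49 against 0.779 and 0.514 FPKM (-1.33). It passed the filter only through the corticotrope libraries, where it was high, so its place among the 7 leans on the filter. With either corticotrope replicate left out it had no test. Il13ra1, a chain for interleukins 4 and 13, was at 9.63 and 12.4 against 3.64 and 4.45 FPKM (-1.25). Its partner chain Il4ra went the other way, at 1.83 and 2.77 in corticotropes and 9.02 and 13.8 in melanotropes (1.90, limma adjusted p = 0.00156), and so did Il10rb (0.60), which missed the threshold on the deposited scale (adjusted p = 0.174).

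Among the other JAKs and STATs, 5 of 7 tested fell and 1 rose. The lower count was 3 without corticotrope replicate 1 or melanotrope replicate 1, and 2 without melanotrope replicate 2. Before rescaling, 6 were lower. The shares over all genes were 18% lower and 19.2% higher, and 66.8% lower before rescaling. Stat5b, the main STAT of growth hormone and prolactin signals, was at 17.7 and 17.4 against 9.50 and 11.1 FPKM (log2 fold change -0.72, limma adjusted p = 0.00251), and its near-identical paralog Stat5a at 7.39 and 7.29 against 4.49 and 5.11 (-0.53), where reads shared between the pair are uncertain. Stat2 (-0.45) and Jak3 (-0.40) fell too. Without melanotrope replicate 2 both calls were lost, and that of Jak3 was also lost without each of the other libraries. Jak3 was lost as well with equal sums of the transcripts other than Pomc (limma adjusted p = 0.0529) and with no filter (0.0522). Stat6, the STAT of interleukin 4 and 13 signals, rose, at 5.45 and 7.18 against 8.97 and 11.1 FPKM (0.60, limma adjusted p = 0.0258), and was lost without corticotrope replicate 1 (0.0777), without melanotrope replicate 2 (0.0780), with no filter (0.0700) and on the deposited scale (0.280).

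Of 15 tested inhibitors other than Socs2 and Socs3, 5 fell and 1 rose. The lower count was 2 without melanotrope replicate 1 and 3 without melanotrope replicate 2. Before rescaling, limma called 14 of the 15 lower and 0 higher, also 0 higher at an unadjusted p under 0.05. Over all genes 18% were lower and 19.2% higher, and before rescaling 66.8% were lower. Cish, a STAT5-induced relative of the SOCS genes, was at 9.67 and 12.5 in corticotropes and 3.40 and 3.45 FPKM in melanotropes (log2 fold change -1.44, limma adjusted p = 5.90e-04), a larger difference than that of any member. Socs5 fell by 0.54 on the log2 scale, and was lost without melanotrope replicate 2 (limma adjusted p = 0.0517). Ptpn1, a phosphatase that acts on JAK2, was at 23.2 and 33.7 against 15.5 and 18.6 FPKM (-0.69). Its call was kept under 13 of 15 alternatives, and was lost without melanotrope replicate 1 among others. Pias1 (-0.29) kept its call under 11 of 15. It was lost with equal sums of the transcripts other than Pomc (limma adjusted p = 0.0896), without corticotrope replicate 1 and without either melanotrope replicate. Socs7 rose (0.38) and was lost without corticotrope replicate 1 (0.1001), without melanotrope replicate 2 (0.0727) and on the deposited scale (0.375).

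Of 13 adaptors that lead from these receptors to the MAP kinase and PI3 kinase arms, 4 fell and 3 rose. Before rescaling, 9 were lower and 1 higher. The shares over all genes were 18% lower and 19.2% higher, and 66.8% lower before rescaling. Pik3r1, the regulatory subunit of PI3 kinase, was at 39.2 and 42.1 against 15.9 and 16.3 FPKM (log2 fold change -1.29, limma adjusted p = 1.65e-04), while its paralog Pik3r2 (0.44) and the catalytic subunit Pik3ca (0.46) rose, neither of them on the deposited scale (limma adjusted p = 0.898 and 0.840). Pik3r2 was also lost without corticotrope replicate 2 (0.0515). Sh2b1, an adaptor of JAK2 and leptin signals, fell (-0.60), as did Grb2 (-0.52), and Gab1 rose, at 3.44 and 3.598 against 6.23 and 6.86 FPKM (0.74). Irs2 (-0.37) was lost without either corticotrope replicate (limma adjusted p = 0.0794 and 0.0509) and without melanotrope replicate 1 (0.111).

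Of 26 textbook STAT3 targets tested, 6 fell, 4 rose and 16 were not called, with a median log2 fold change of -0.09. Before rescaling, 16 were lower and 2 higher. Over all genes 18% were lower and 19.2% higher, and before rescaling 66.8% were lower. Cebpd, a C/EBP factor that glucocorticoids are also known to induce, was at 81.1 and 138 FPKM in corticotropes and at 4.46 and 6.56 in melanotropes (-4.06, limma adjusted p = 2.42e-04). Zfp36, an mRNA decay factor, was at 162 and 199 against 63.0 and 85.4 FPKM (-1.28), and Nampt (-0.62) and Hif1a (-0.44) fell too. A2m, a protease inhibitor, rose from 1.13 and 0.902 to 4.30 and 5.39 FPKM (1.53, limma adjusted p = 4.73e-04). The survival factor Bcl2 (0.90), Pim3 (0.78) and Cebpb (0.51) also rose. Cebpb was lost on the deposited scale (limma adjusted p = 0.660), and Pim3 was lost there (0.138), with no filter (0.0751) and without corticotrope replicate 1 (0.0868).

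**Figure D4:**
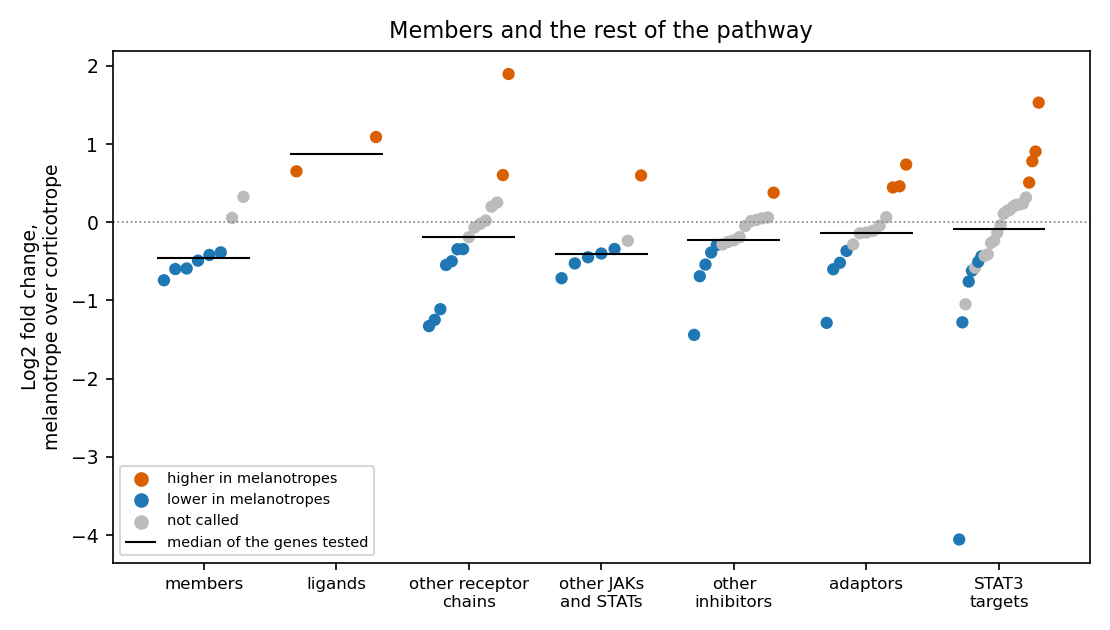
Log2 fold change of melanotrope over corticotrope (vertical axis) for the 8 tested members and the 78 tested genes of the 6 pathway lists, 1 point per gene, coloured by its call, with the median of each list as a line. The members' median is -0.45, and Cebpd, at -4.06 among the STAT3 targets, is the lowest point.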

How the data were processed

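Libraries were those of 2 corticotrope and 2 melanotrope samples. FPKM values were deposited by the authors for each RefSeq transcript, and per the file headers they came from HOMER's analyzeRepeats, which counted reads in exons on mm10. TopHat, HOMER and edgeR are named without versions, per the submitters' processing notes. The authors' log2 fold changes, p-values and FDR came from HOMER's getDiffExpression on the FPKM table, per the file headers. The deposited ratio column (Fold change) was not used. The sources used here do not say whether counting used strand.

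The longest transcript stood for each gene. The columns were divided by an unweighted trimmed mean of M values (30% of M and 5% of A trimmed on each side, over genes with at least 1 FPKM in 2 libraries), giving 1.22 and 1.15 in corticotrope and 0.873 and 0.817 in melanotrope libraries. The genes behind these factors were set after values had been seen. Genes that reached 1 rescaled FPKM in 2 libraries entered the test, limma 3.58.1 in R 4.3.3 (trend, two-sided, Benjamini-Hochberg over all genes tested, threshold 0.05) on log2(FPKM + 1), which understates the change of low genes. Cell type was the only term. It was tested on simulated data for this comparison with 13044 genes, where 100% of 100 genes changed by 1 and 100% of 100 changed by 2 (log2) were recovered, with 17 false calls. These changes were put only into well expressed genes, with noise independent between libraries, and were larger than that of any member. The recovery therefore does not cover low genes or differences of the members' size.

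Low FPKM times length lay within 0.13 of a whole multiple of 1 step in 100% of the values used, which gave the implied reads. It is unknown here whether a read pair was counted as 1 or 2. Members and lists were chosen with earlier results of these data known. Genes named from the lists are those past the threshold, at most 4 per direction by smallest adjusted p, plus Lif, Il6, Lep and Cish. Clcf1, Il27, Leprot and the cell markers were named outside that rule. Of the listed genes, 1 is not reported here.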

Additional observations from a re-analysis of the deposited data

How the results depend on the processing

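Each log2 fold change was refitted under 15 alternatives, 14 of them fixed with the design and 1, scaling from all genes above 0, added after seeing the data. Members called lower numbered 4 to 6 under the 15 (4 to 6 when 1 library was left out), against 6, and Il6st, Lifr and Jak1 were called under each. The members called higher were 0, and 1 (Jak2) with equal sums without Pomc, with a replicate block and in the leave-one-out range of 0 to 1; transcripts called higher were 2 in the first pair and 0 to 2 when a library was left out. Transcripts called lower were 12, 5 with no expression filter, and 5 to 12 when a library was left out. Over all genes 2498 were higher and 2353 lower. On the deposited scale these were 939 and 8787 (66.8% lower), around a median of -0.42. When a library was left out they were 1533 to 1773 and 1560 to 1728. Pathway genes were 13 higher and 27 lower, 5 and 56 on the deposited scale, and 10 to 13 and 17 to 23 when a library was left out. Jak2 turned to -0.12 and Socs3 to -0.43 on the deposited scale, and Socs3 ranged from -0.28 to 0.33 when a library was left out. The cause of these shifts was not tested.

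The labels do not tie libraries of the same replicate number to a shared animal or day, and their deviations correlated at 0.525 across genes. With replicate number as a block, 3804 genes were higher and 3528 lower, 41 pathway genes were lower and 19 higher (inhibitors 9 lower, STAT3 targets 13 lower and 9 higher), and Jak2 was called higher (adjusted p = 0.00162). Of the other members called, none lost its call under the block.

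Stat3 was lost with equal sums without Pomc (adjusted p = 0.0718), a pseudocount of 5 (0.0528), no filter (0.0963), a filter on the mean (0.0503), a single prior variance (0.0572) and scaling from all genes above 0 (0.0624). Implied reads limit Lepr and Osmr alone among the members.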
